A study of Drosophila melanogaster with 3 samples.

Results

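Pooled Atf3 ChIP-seq calls that hold the DNA replication-related element (DRE) at their summit are described here. The DRE is the exact 8-bp palindrome TATCGATA, and a call was kept when that palindrome lay within 100 bp to either side of its summit. This gave 432 of the 27754 calls made from the 3 replicates pooled. Signal played no part in the choice, so the rule did not act directly on the rank and the replicate support of these calls. Their genes and locations also depend on where the genome holds the palindrome.

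The data are chromatin immunoprecipitations from 3 biological replicates of whole Drosophila melanogaster embryos of strain A3-3-GFP, aged 0 to 24 hours and of both sexes. A stable transgenic line expressed Atf3, a stress-linked bZIP transcription factor, with a GFP tag at its C-terminus, and an anti-GFP antibody was used. The replicates form 1 group with no treatment and no second genotype, and 1 transgenic line and a mixture of all embryonic tissues and stages limit it as a model. How deeply each sample was sequenced is unknown, since a list of calls does not state it.

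DREF is a zinc finger (BED-type) protein that binds the DRE as a dimer. Its sites lie at core promoters of DNA replication, cell growth and housekeeping genes, many of which lack a TATA box, and it acts there with a complex that holds the TBP-related factor Trf2. The insulator protein BEAF-32 recognises CGATA, which the palindrome contains. Atf3 binds DNA as a bZIP dimer, and the palindromic cAMP response element (CRE) is the classical site of its family. DREF was not assayed in these embryos, so a DRE below is a stretch of letters and not a measured DREF site.

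The strongest calls show what these sequences look like. Each line gives 30 bases of the plus strand of the release 6 genome (dm6), 5′ to 3′, with the DRE in capitals, for 10 of the calls of highest signal.
Shc, chr3L:9426949-9426978: cactgagcaacTATCGATAtgcctgctagc
CG11151, chrX:13739453-13739482: aaaccaaatgaTATCGATAcagttatttac
GCS2beta, chr2L:17484291-17484320: atagagacaacTATCGATAgcaacgggcag
eEF1gamma, chr3R:29220120-29220149: ggcctaggaaaTATCGATAtatcgccgtaa
RpL28, chr3L:3223034-3223063: ggcagggcaacTATCGATAagcatttcgta
CG10628, chr2L:19758816-19758845: atcttttcttcTATCGATAaatcatcacaa
RpS25, chr3R:11216328-11216357: gctcgcctgccTATCGATAgttggtggtgg
Ttc19, chr2L:19045318-19045347: gcatacgatacTATCGATAgccgtcagcgg
wac, chr3L:258170-258199: actgtagagacTATCGATAtctgcacctaa
Cp190, chr3R:15275227-15275256: cgctcggcagcTATCGATAgccatgcgata
A further 7 sites are shown because their genes are reported DREF targets, or because the call holds the most copies of the palindrome, which is the case of eIF2gamma.
p53, chr3R:23054121-23054150: atatccatggcTATCGATAagcTATCGATA
SkpA, chrX:656040-656069: agtgcgatatgTATCGATAattgaatgcca
PolA1, chr3R:21671929-21671958: gagtggtaataTATCGATAggtggcagcgc
Cat, chr3L:18822554-18822583: tataatcgaaaTATCGATAtcttcggccca
wts, chr3R:30806657-30806686: accacatcaggTATCGATAggatttgaccg
CycA, chr3L:11833571-11833600: cactgtccagcTATCGATAggtcgtggcgt
eIF2gamma, chr3R:15263517-15263546: actgcgatgcgTATCGATAgagtgccgccc
Of the 10 sites of the first set, 4 have a C just before and a G just after the palindrome, 4 have 1 of these letters and 2 have neither.

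The DRE calls lay at promoters. A summit within 500 bp of a transcription start site (TSS) was counted as a promoter, and 383 of the 432 DRE calls (88.7%, 95% Wilson interval 85.3 to 91.3%) were promoter calls, against 26.0% of the 27322 calls without the palindrome. All such intervals cover counting error only. A further 28 DRE calls (6.48%) were intronic, 16 (3.70%) intergenic, 4 coding and 1 in a 5' UTR, whereas 34.2% of the other calls were intronic and 18.1% coding. The palindrome itself lies at promoters: it was in 6.43% of windows of the same length centred on the starts of coding genes and in 0.542% of windows 600 bp to either side of the pooled summits. Promoter calls as a whole held it in 5.12% of their windows, which is below the share at coding starts. That share was lower at larger distances, being 11.6% (10.1 to 13.2%) of 1642 calls with a summit 0 to 50 bp from a TSS, 8.92% of 1300 farther out to 100 bp, 3.42% of 1669 from there to 200 bp and 0.696% of 2874 from there to 500 bp.

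Within the promoter, the DREs kept to a narrow stretch before the start. The 432 windows hold 469 copies, and 418 of these lay within 500 bp of a TSS in promoter calls. The median copy was 35 bp upstream of the TSS (signed distance −35.0 bp, quartiles −59.8 and −9.00 bp), 82.5% were upstream, and 72.0% fell between 100 bp upstream and the start. The interquartile range of this distance was 50.8 bp. Promoter copies of the genome, with or without a call, also lay mostly there. Of 1558 within 500 bp of a TSS, 662 were 0 to 50 bp upstream and 288 from there to 100 bp. The window also keeps each copy within 100 bp of a summit, so the position is not particular to these calls. The summits of the same calls were spread over 74.5 bp around the TSS, and the distance between site and summit over 87.0 bp.

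The DREs were not gathered at the summits. Of the 469 copies, 124 (26.4%, 22.7 to 30.6%) lay within 25 bp of the summit, where an even spread over the window would put 25.8%. In the calls of highest signal, defined below as IDR peaks, the share was 20.4% (14.5 to 28.0%) of 137 copies. For the CRE palindrome TGACGTCA it was 30.4% (24.8 to 36.7%) of 227 copies in all calls and 37.2% (27.3 to 48.3%) of 78 copies at promoters, where the DRE gave 25.6% (21.6 to 30.0%). The intervals of both motifs overlap over all calls, and at promoters as well.

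**Figure D1:**
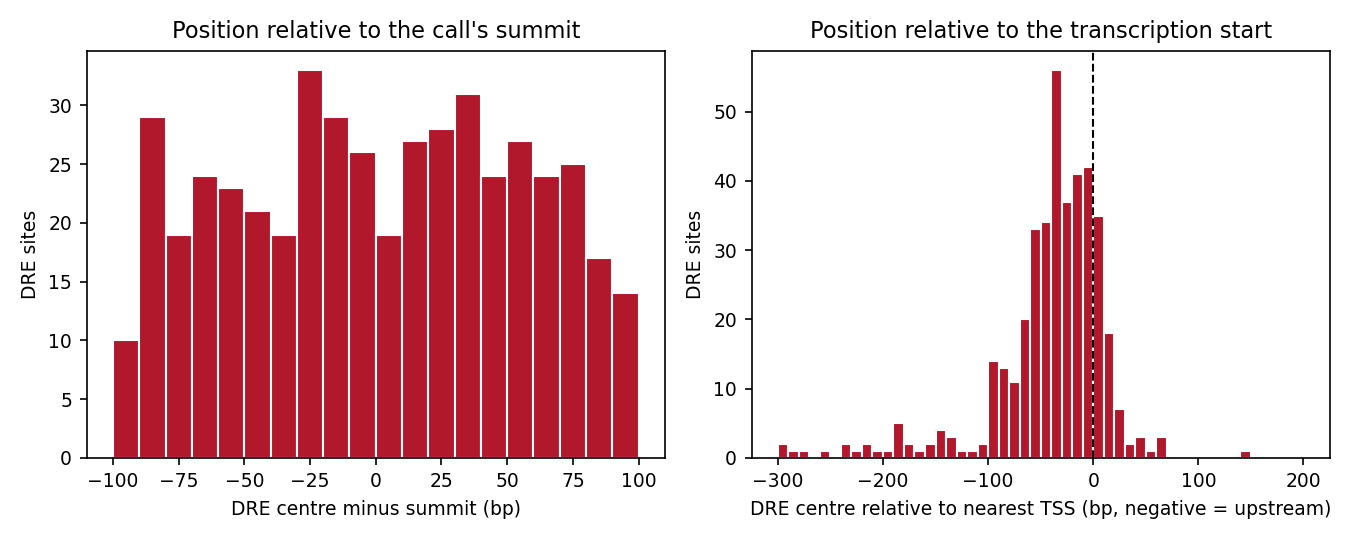
Distance of each DRE copy from the summit of its call (left, all 469 copies, in bp) and from the nearest TSS (right, copies of promoter calls between 300 bp upstream and 200 bp downstream, in bp, negative upstream; dashed line at the TSS), as counts of sites in 10-bp bins. The copies spread over the whole window around the summit and crowd just upstream of the TSS, with a median of −35.0 bp.

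The DRE calls ranked high among all calls. The median signal, which is the authors' own value per call and serves only to rank calls within a list, was 52.2 in DRE calls and 33.2 in the others, and the median rank was 5542 against 13996 (rank 1 is the highest signal). The reproducible list, chosen by the irreproducible discovery rate (IDR, how repeatably a call ranks between replicates), holds 2896 pooled calls, and these are the calls of highest pooled signal. It kept 127 of 432 DRE calls (29.4%, 25.3 to 33.9%), against 10.1% of calls without the palindrome and 10.4% of all pooled calls.

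The gap was smaller among promoter calls. There, 122 of 383 DRE calls (31.9%, 27.4 to 36.7%) were IDR peaks, against 20.2% (19.3 to 21.2%) of 7102 promoter calls without the palindrome and 20.8% of all promoter calls. The median promoter signal was 56.6 with the DRE and 40.5 without, a difference of 0.48 on the log2 scale. Measured on each replicate's own list and summits, the difference of medians was 0.30, 0.45 and 0.34 in replicates 1, 2 and 3 (mean 0.36 ± 0.08, SD, n = 3, exact sign-flip permutation p = 0.25). With 3 replicates this two-sided test cannot go below 0.25, so no comparison of this kind can reach 0.05. At the very top no excess was seen: 7.57% of DRE promoter calls and 7.76% of the others were among the upper 1000 pooled calls. Among IDR peaks at promoters the median log2 signal was lower with the DRE, by −0.22.

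**Figure D2:**
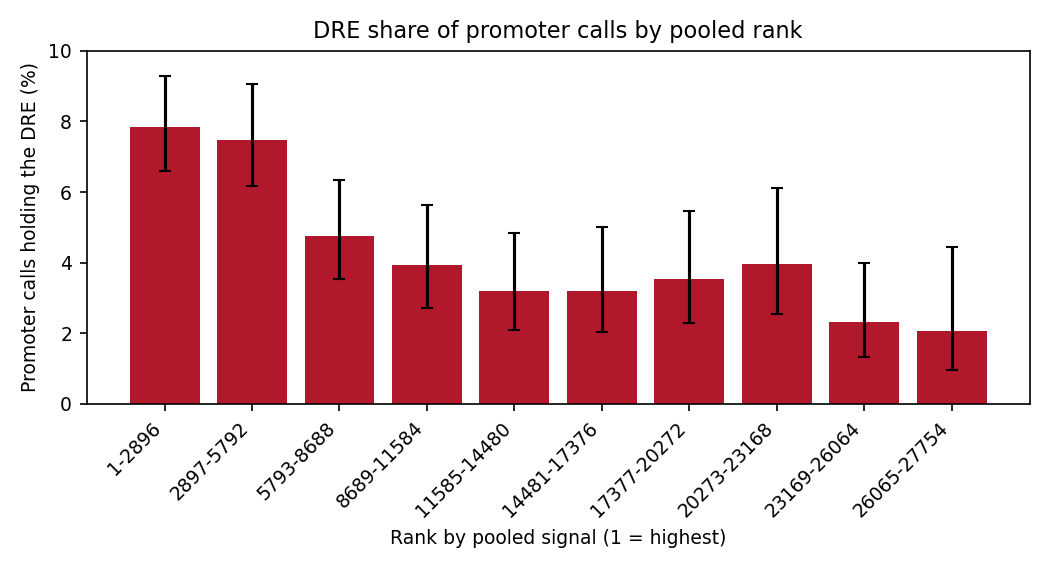
Share of promoter calls that hold the DRE (y axis, %) in successive sets of pooled calls ranked by signal (x axis, rank 1 is the highest), with 95% Wilson intervals as error bars. The share is 7.84% in the first set, 7.48% in the next and 2.07% in the last.

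The highest-ranked DRE call lay between the divergent genes Shc, which encodes an adaptor downstream of receptor tyrosine kinases, and Atat, a tubulin acetyltransferase gene. It had a pooled signal of 864 (pooled rank 18) and ranked 25, 16 and 17 in replicates 1, 2 and 3. Here and below, a replicate rank is that of the highest-ranked call of the replicate that overlaps the pooled call. The next was at the antisense RNA gene asRNA:CR45928 and eIF6, a factor of 60S ribosome maturation, with a signal of 654 and ranks 63, 36 and 31. Both calls were near the top of every replicate list.

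The next calls were at Alg3, CG11151 and GCS2beta. Alg3, a mannosyltransferase that builds the N-glycan precursor, had a signal of 451 and ranked 53, 355 and 86 in the 3 replicates. GCS2beta, a subunit of the glucosidase that trims the glycan in the endoplasmic reticulum, had 299 and ranked 313, 232 and 232. Alg3 thus stood lower in replicate 2 than in the other two, while GCS2beta stayed within a narrow range. CG11151 had a signal of 353 with ranks 136, 245 and 215.

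Several of the upper 15 calls were at translation genes. eEF1gamma, a subunit of the elongation factor that reloads eEF1A, had a signal of 296 and ranked 115, 725 and 345. RpL28 shares its call with eIF1, which acts in start codon selection; the signal was 282 and the ranks 285, 443 and 284. RpS25 had 240 with ranks 287, 609 and 496, and RpS10b 217 with ranks 281, 1237 and 724. In each of these calls replicate 2 gave the lowest standing. The call named for the sodium channel gene NaCP60E also covers the start of RpL41 (signal 227).

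Further calls of the upper 15 were at CG10628 (signal 266), at Ttc19, linked to assembly of respiratory complex III (229), at wac, an augmin subunit for spindle microtubules (223), and at Cp190, an insulator protein (221). Cp190 ranked 802, 539 and 318 in replicates 1, 2 and 3. All 15 calls were promoter calls and all were found in the 3 replicate lists. All were IDR peaks, which follows from their choice by pooled signal.

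**Figure D3:**
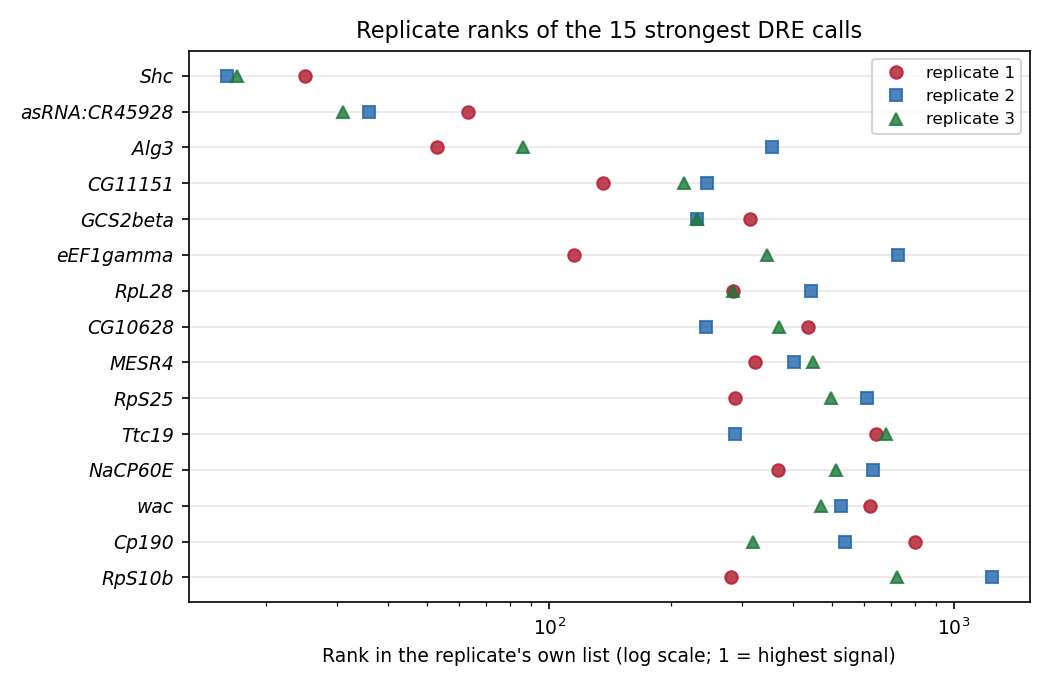
Rank of the 15 DRE calls of highest pooled signal (rows, named by the nearest gene, highest signal on top) in each replicate's own list (x axis, log scale, rank 1 is the highest signal), with 1 symbol per replicate. Shc and asRNA:CR45928 stand in the upper 63 of every list, and RpS10b spreads from 281 to 1237.

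A nearest gene is only a name for such calls, because 189 of the 432 DRE calls had starts of at least 2 coding genes within 500 bp. In all, 574 coding genes (4.12% of 13945) had a DRE call within 500 bp of a start.

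Among 17 genes listed as reported DREF targets, 11 had the palindrome in the promoter, taken as 250 bp upstream to 50 bp downstream of a start, against 10.2% of all coding genes. A pooled call of any kind was found at 15 of the 17, against 46.8% of coding genes, and a DRE call at 6. An IDR peak was at 4 of the 17 (23.5%, 9.56 to 47.3%), against 14.2% of coding genes.

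The tumour suppressor gene p53 was the single one whose DRE call was an IDR peak. It holds 2 copies, has a signal of 136 (rank 1202) and ranked 1187, 1682 and 1432 in replicates 1, 2 and 3. SkpA, a subunit of the SCF ubiquitin ligase, had 70.7 and ranked 2414, 11357 and 22025, highest in replicate 1. PolA1, the catalytic subunit of DNA polymerase alpha, also has 2 copies and had a signal of 69.0 with ranks 4691, 3488 and 6931. Cat, which encodes catalase, had 67.4 and CycA, a mitotic cyclin, 33.9; both were found in replicate 1 alone, at ranks 4327 and 4303. The Hippo pathway kinase gene wts had 51.6 and ranked 8423, 13049 and 12457.

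In other reported targets a call was present but its summit lay away from the palindrome, or the promoter held none. The chromatin remodelling gene mor had an IDR peak (signal 94.4) 158.5 bp from the nearest DRE, and ranked 10502, 703 and 2844, lowest in replicate 1. The DNA polymerase alpha subunit gene PolA2 had a call of signal 48.2 and its summit was 355.5 bp from the site. For Gnf1, the large subunit of the clamp loader, the values were 27.9 and 244.5 bp. For Tbp, the TATA-binding protein gene, they were 40.4 and 482.5 bp. PCNA, the sliding clamp gene and the classical DREF target, has the palindrome in its promoter but had no pooled call within 500 bp of a start.

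No palindrome was in the promoters of the remaining 6 targets. The mitochondrial genes mtSSB (single-strand DNA-binding protein) and PolG2 (accessory subunit of the mitochondrial DNA polymerase) had IDR peaks of signal 184 and 105. TFAM had a call of signal 45.2, the cell cycle activator gene E2f1 one of 49.2 and the kinase gene Raf one of 64.6, none of them an IDR peak. The JNK gene bsk had no call.

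Of 12 listed genes for DREF itself and its partners, 10 (83.3%, 55.2 to 95.3%) had a call, against 46.8% of coding genes. An IDR peak was at 5 (41.7%, 19.3 to 68.0%), against 14.2% of coding genes. A DRE call was at 2 (16.7%, 4.70 to 44.8%, against 4.12% of coding genes). These were the chromatin remodeller genes Iswi (signal 51.5, absent from the list of replicate 2) and XNP (34.3). The strongest call at XNP had a signal of 79.5 (rank 2912), was not an IDR peak, and had its summit 156.5 bp from the nearest DRE. Both calls at XNP carry the replicate ranks 5425, 2474 and 4161. None of the 5 IDR peaks had the palindrome within 100 bp of its summit. They were at Chro, a chromodomain protein of interbands (signal 1197, rank 7), at Dref (175), at pzg, a zinc finger partner (130), at BEAF-32 (128) and at E(bx), the NURF subunit gene (127). The call at Chro ranked 10, 5 and 7 in replicates 1, 2 and 3, and that at Dref 320, 1598 and 1562. BEAF-32 has the palindrome in its promoter, 157.5 bp from the summit, and ranked 3877, 1135 and 1065. The genes for M1BP, Trf2 and Mi-2 had calls outside the IDR list, while Nurf-38 and Caf1-55 had none.

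Ribosomal protein genes had the highest number of DRE calls of the 12 lists, while the share was higher among the reported DREF targets (35.3%). Of 91 cytoplasmic ribosomal protein genes, 27 (29.7%) had the palindrome in the promoter and 21 (23.1%, 15.6 to 32.7%) had a DRE call, 16 of which were IDR peaks. Those of RpL28 and RpS25, described above, were among the strongest. At the lower end were RpS13 (signal 35.2, found in replicate 1 alone) and RpS15Ab (26.9). IDR peaks were at 17 of 27 ribosomal protein genes with the palindrome in the promoter (63.0%) and at 41 of 64 of those without (64.1%). The genes RpS15Aa and RpS15Ab are close copies, and how the authors placed reads that match both is not given in the sources used here.

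Of the translation factors, 10 of 51 genes had a DRE call (19.6%, 11.0 to 32.5%). The leading ones were eIF6, eEF1gamma and eIF1. Further calls were at eIF2gamma (98.8), which binds the initiator tRNA, at eIF1A (91.9) and at eIF3a (88.6), all IDR peaks. At eIF2gamma the ranks were 1846, 6397 and 3522 in replicates 1, 2 and 3. The palindrome was in the promoters of 15 of the 51 genes, of which 6 (40.0%) had an IDR peak, and in the other 36 genes 8 (22.2%) had one.

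The element is named after DNA replication genes. The palindrome was in the promoters of 16 of 46 genes (34.8%), the highest share among the lists other than the reported targets, and 5 genes (10.9%, 4.73 to 23.0%) had a DRE call, against 4.12% of coding genes. None of the 5 was an IDR peak (0 of 46, upper Wilson bound 7.71%), and over all coding genes the share with a DRE call in the IDR list was 1.40%, so a count of 0 in this list is near the background. PolA1 is given above, Top2, the type II topoisomerase gene, had a signal of 56.0 and ranked 3647, 9849 and 16058, and Orc5, an origin recognition subunit, had 36.1 and was absent from replicate 3. Of the 16 genes with the palindrome, 1 (6.25%) had an IDR peak of any kind, against 7 of 30 (23.3%) without it.

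Of 28 cell cycle genes, 3 (10.7%, 3.71 to 27.2%) had a DRE call. BubR1, a spindle checkpoint kinase gene, had a signal of 170 and ranked 1149, 694 and 736, which made it the only IDR peak of the 3. Cdk2 had 42.7 and CycA 33.9. Among 48 proteasome genes 5 (10.4%, 4.53 to 22.2%) had a DRE call, led by Prosbeta1 (85.3, an IDR peak), Prosalpha3 (63.2) and Rpn13 (48.0). For oxidative phosphorylation there were 6 of 84 (7.14%, 3.31 to 14.7%), led by ATPsynE (98.9), ND-SGDH (83.6) and ND-ASHI (59.6). The ranks of ATPsynE were 8239, 737 and 2991, and ND-SGDH was absent from replicate 1 although both were IDR peaks. The lower interval bounds of the cell cycle and oxidative phosphorylation lists were below the 4.12% of coding genes with a DRE call.

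Of 73 mitochondrial ribosomal protein genes, 16 had the palindrome in the promoter, 50 (68.5%) had a pooled call of any kind and 2 (2.74%, 0.755 to 9.45%, near the 4.12% of coding genes) had a DRE call, mRpL16 (106, an IDR peak) and mRpS18B (28.8). An IDR peak of any kind was at 6 of the 16 genes with the palindrome (37.5%) and at 13 of the 57 without (22.8%). DRE calls were at 2 of 35 aminoacyl-tRNA synthetase genes (5.71%, 1.58 to 18.6%), TrpRS (58.2) and AsnRS (53.4), neither an IDR peak. In the general transcription machinery there were 4 of 62 (6.45%, 2.54 to 15.4%), none an IDR peak. They were led by the Mediator genes MED17 (67.2), MED8 (50.8) and MED7 (49.1). The intervals of both lists cover the 4.12% of coding genes. MED7 ranked 14835, 754 and 1569, far lower in replicate 1 than in the other two. The pooled rank of its call was 6128, and whether these replicate ranks belong to a neighbouring call was not checked. Segmentation and Hox genes had 0 DRE calls among 29 genes (upper Wilson bound 11.7%, which covers the 4.12% of coding genes) and the palindrome in 2 promoters.

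**Figure D4:**
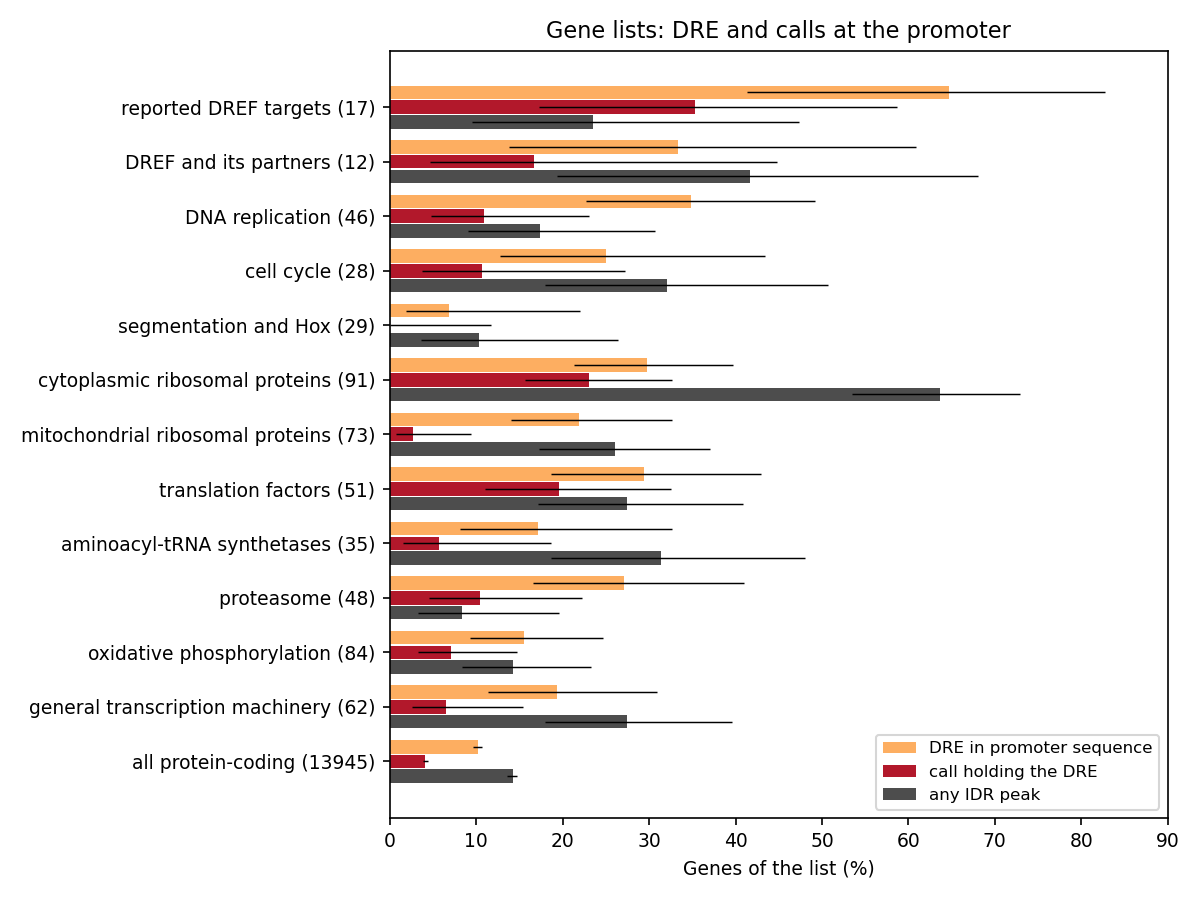
Percent of the genes of each list (number of genes in brackets) with the DRE in the promoter sequence, with a pooled call holding the DRE within 500 bp of a start, and with an IDR peak of any kind there (x axis, %), with 95% Wilson intervals as thin lines. Cytoplasmic ribosomal protein genes lead in IDR peaks at 63.7%, and reported DREF targets lead in promoters with the palindrome at 64.7%.

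Replicate support was uneven. A call counted as found in a replicate when a call of that replicate's own list overlapped it by at least 50% of the shorter one. Where several did, the highest-ranked one gave the rank. A weak pooled call can therefore take the rank of a stronger neighbour. The calls at Cdc50 (signal 79.5) and rngo (37.2), for example, share the ranks 3002, 3594 and 4390. Replicate 1 held 376 of the 432 DRE calls (87.0%), replicate 2 held 300 (69.4%) and replicate 3 held 270 (62.5%), against 62.9%, 53.8% and 58.6% of calls without the palindrome. The 3 replicate lists have the same length, 30000 calls each. In all 3 lists 197 DRE calls were found (45.6%, 41.0 to 50.3%), against 22.5% of the other calls and 22.9% of all pooled calls. At promoters these shares were 49.9% with the DRE and 34.2% without. Replicates 1, 2 and 3 held 88.8%, 73.6% and 64.8% of DRE promoter calls, against 77.7%, 60.3% and 60.8% of the other promoter calls. Replicate 1 was thus highest in both sets.

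Of the DRE calls found in 1 list, 66 were in replicate 1, 15 in replicate 2 and 12 in replicate 3, and 11 DRE calls were in none. Promoter calls without the DRE also were most often in replicate 1 alone, but the skew was weaker. Of these, 16.7%, 5.82% and 6.89% were in replicate 1, 2 or 3 alone, against 14.4%, 3.39% and 1.83% of DRE promoter calls. The DRE calls kept in the IDR list were better supported, with 117 of 127 (92.1%) in all 3 lists, against 95.0% of the other IDR peaks. That list was chosen by repeatability between these replicates, so such support is built into it. Across the 197 DRE calls found in every list, Spearman's rho of their ranks was 0.45 for replicates 1 and 2, 0.52 for 1 and 3 and 0.65 for 2 and 3. Across 6155 calls without the palindrome it was 0.69, 0.69 and 0.71. These correlations run over calls that share a library and are descriptions only.

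Replicate 1 also stood highest when each replicate's own summits were searched. The palindrome was within 100 bp of 517 summits of replicate 1 (1.72%), 362 of replicate 2 (1.21%) and 333 of replicate 3 (1.11%). It was enriched toward the top of each list. Among the 2896 top peaks of each replicate, a number equal to the size of the IDR list, 4.07%, 3.90% and 3.38% held it (3.78% ± 0.359, SD, n = 3), and among the rest 1.09% ± 0.334 did. Within promoter calls the shares were 6.93% ± 0.329 in top peaks and 3.78% ± 0.378 in the rest.

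DRE promoter calls were more often among the top peaks than promoter calls without the DRE. In replicates 1, 2 and 3, 28.7%, 35.5% and 26.6% of DRE promoter calls were found among the top peaks (30.3% ± 4.64), against 21.7%, 22.1% and 19.9% of the other promoter calls (21.2% ± 1.16). Over all pooled calls the shares were 11.1% in replicate 1, 11.2% in replicate 2 and 11.1% in replicate 3. The difference was positive in each of the 3 replicates, with a mean of 9.07 percentage points ± 3.77 (exact sign-flip permutation p = 0.25, the smallest possible). With only the 1000 top peaks of each replicate it was 0.57 points (exact p = 0.75), and among summits within 100 bp of a TSS 5.63 points ± 2.08 (exact p = 0.25).

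DRE promoter calls were often divergent. A promoter call was called divergent when 2 coding genes start within 500 bp of its summit in opposite directions and away from each other, and 185 of 383 DRE promoter calls (48.3%, 43.3 to 53.3%) were, against 19.0% of those without the palindrome. Divergent promoter calls were strong with or without the DRE: 67 of 185 (36.2%) and 501 of 1348 (37.2%) were IDR peaks. At promoters that are not divergent, 55 of 198 DRE calls (27.8%, 22.0 to 34.4%) were IDR peaks, against 16.2% (15.3 to 17.2%) of 5754 calls without it. The calls at these promoters also differed in distance, with a median of 56.0 bp from summit to TSS with the DRE and 185 bp without. Over all promoter calls without the DRE, 21.0% were IDR peaks at 0 to 50 bp from a TSS. The share was 25.9% farther out to 100 bp, 26.3% from there to 200 bp and 14.0% from there to 500 bp. The part of distance in the gap was not tested. This split by layout was chosen after the values had been seen.

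The replicates gave the same picture. At divergent promoters the share among the top peaks was 27.6%, 45.4% and 28.1% with the DRE and 33.8%, 44.9% and 38.3% without, and the differences were −6.26, 0.524 and −10.2 points (mean −5.30 ± 5.41, exact sign-flip permutation p = 0.5). At the other promoters it was 29.8%, 26.3% and 25.3% with the DRE and 18.8%, 16.8% and 15.6% without, and the differences were 11.0, 9.51 and 9.66 points (mean 10.1 ± 0.816, exact p = 0.25). The groups did not overlap at the promoters that are not divergent, and they did at the divergent ones. These groups were not matched for distance to the TSS. Whether the difference itself differs between the 2 kinds of promoter was not tested.

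**Figure D5:**
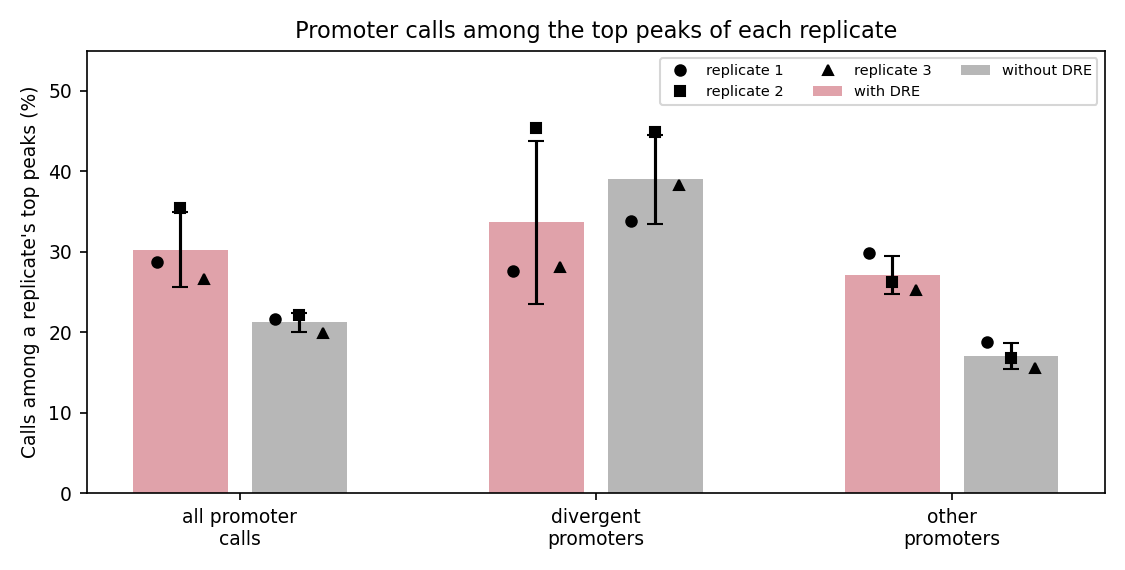
Percent of promoter calls found among the 2896 top peaks of each replicate (y axis), with and without the DRE, for all promoter calls, divergent promoters and the other promoters. Bars are means over 3 replicates, error bars the SD and symbols the replicates. With the DRE the means are 30.3%, 33.7% and 27.1%, and without it 21.2%, 39.0% and 17.0%. The groups were not matched for distance to the TSS.

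Seen from the genes, the palindrome in a promoter went with more calls. Of 1417 coding genes with the DRE in the promoter, 939 (66.3%, 63.8 to 68.7%) had a pooled call, against 44.6% (43.7 to 45.5%) of 12528 genes without it. An IDR peak was at 23.6% of genes with the DRE and at 13.1% of those without. The genes with the DRE had a top peak in 20.3%, 25.5% and 20.0% of cases in replicates 1, 2 and 3, against 12.4%, 13.7% and 12.0% of genes without (difference 9.24 points ± 2.23, exact sign-flip permutation p = 0.25). Among genes that have a pooled call, the difference was 4.63 points ± 2.68.

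The genes also split by promoter layout. Divergent starts were present at 51.0% of genes with the DRE and at 24.7% of those without. For divergent genes an IDR peak was at 31.0% with the DRE and 29.3% without, and the top-peak shares differed by −0.0459 points ± 3.03 (exact p = 1.0). For the other genes an IDR peak was at 15.9% with the DRE and 7.79% without, and the shares differed by 7.87 points ± 0.743 (exact p = 0.25), with the genes with the DRE higher in 3 of 3 replicates.

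Most DREs of the genome had no call. The 6 chromosome arms hold 4019 exact copies, of which 469 (11.7%, 10.7 to 12.7%) lay in the summit window of a pooled call and 137 in that of an IDR peak. Within 500 bp of a TSS, 419 of 1558 copies (26.9%) were at a call, and farther away 50 of 2461 (2.03%). The share was 32.2% at 0 to 50 bp upstream of the start, 31.6% from there to 100 bp, 19.0% from there to 200 bp and 12.8% from there to 500 bp. Downstream it was 29.7% within 50 bp and 7.77% from there to 500 bp.

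The letters next to the palindrome differed between copies with a call and copies without. The extended palindrome CTATCGATAG, with a C just before the DRE and a G just after it, occurred at 147 promoter copies, and 65 of them (44.2%, 36.4 to 52.3%) were at a pooled call. With 1 of the outer letters, 181 of 649 copies (27.9%, 24.6 to 31.5%) were at a call, and with neither 173 of 762 (22.7%, 19.9 to 25.8%). IDR peaks took in 19.0%, 7.24% and 7.48% of these copies. The outer letters were examined after the values had been seen.

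The order held in each replicate's own list. Copies with both outer letters were at a call of replicates 1, 2 and 3 in 41.5%, 31.3% and 26.5% of cases, against 27.0%, 16.5% and 16.5% of copies with neither (difference 13.1 points ± 2.67, exact sign-flip permutation p = 0.25). For top peaks the shares were 12.9%, 14.3% and 10.9% with both, against 7.61%, 5.91% and 5.12% with neither (difference 6.49 points ± 1.66, exact p = 0.25). Every replicate was higher with both letters.

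The difference was also present within position and layout classes of promoter copies. From 100 bp upstream to the TSS, 45.5% (36.6 to 54.8%) of copies with both letters and 28.7% (24.6 to 33.1%) with neither were at a call. At divergent promoters the shares were 57.8% of 64 copies with both and 30.4% of 240 with neither, and at the others 33.7% of 83 and 19.2% of 522. Over 500 bp from any TSS the difference was not seen, with 2.22% (0.612 to 7.74%) of 90 copies and 2.03% (1.40 to 2.94%) of 1331. The 10 letters CTATCGATAG, searched in the same way, were in 0.816% of the windows on the starts of coding genes and matched 237 times in the genome.

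Words that differ from the palindrome by 1 letter were less concentrated at promoter summits. Positions are counted from 1 at the left end, and since the word is palindromic the 12 changes of positions 1 to 4 stand for all, both strands being read. The exact DRE was in 5.12% of promoter summit windows and 0.782% of windows 600 bp away, a ratio of 6.55. Each changed word was counted in promoter calls without the exact DRE, and the ratio was 2.79 for T1C, 2.62 for T1A, 2.00 for T3C, 1.89 for A2T and 1.74 for A2G. It was 1.60 for T3A, 1.45 for T3G, 1.40 for A2C and 1.23 for T1G, which keep the central CG. For the words that break it, the ratio was 1.11 (C4T), 1.07 (C4G) and 0.769 (C4A).

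The share of IDR peaks was 20.2% over all promoter calls without the DRE, and the interval of every changed word covered that value. The share was 31.9% for the exact DRE, 24.2% (19.2 to 30.2%) of 231 promoter calls for T1A and 20.9% (15.3 to 27.7%) of 163 for T1C. It was 29.8% (18.7 to 44.0%) of 47 for A2G, 28.6% (18.4 to 41.5%) of 56 for T3A and 15.6% (7.75 to 28.8%) of 45 for T3C. Of the words that break the centre, C4T had 19 of 84 (22.6%), C4G 21.3% (12.0 to 34.9%) of 47 and C4A 9 of 60 calls (interval 8.10 to 26.1%). These shares did not follow the order of the ratios. In top peaks the A2G calls averaged 30.5% ± 1.23 over the replicates, the T1A calls 28.0% ± 4.59, the C4T calls 26.2% ± 6.30 and the C4A calls 17.8% ± 7.70, against 30.3% ± 4.64 for the exact DRE.

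Other promoter motifs were searched on both strands in the same windows. The CRE palindrome was in 1 of 383 DRE promoter calls (0.261%, 0.0461 to 1.46%), in 1.08% of the promoter calls without the DRE and in 0.27% of windows on coding starts. The single DRE call with a CRE was not an IDR peak. Its 6-letter core TGACGT was in 6.27% of DRE promoter calls, 6.11% of the others and 5.01% of start windows. The AP-1 word TGANTCA was in 4.70%, 4.36% and 3.74%.

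Core promoter words differed more. The TATA word TATAAA, which also occurs by chance in AT-rich DNA, was in 29.2% (24.9 to 34.0%) of DRE promoter calls, 22.2% of the others and 26.8% of start windows. Within the DRE promoter calls, 22.3% of those with the TATA word and 35.8% of those without it were IDR peaks. The median GC content of the windows was 38.3% with the DRE and 43.3% without, and its part in these shares was not tested. The M1BP word GGTCACACT, also called motif 1, was in 4.96%, 2.70% and 4.43% of the 3 sets, and the E-box CACGTG in 4.18%, 2.63% and 2.79%. The GAGA word GAGAG was in 13.8% (10.7 to 17.7%) of DRE promoter calls, 25.4% of the others and 24.9% of start windows. The initiator word TCAGT was in 26.9%, 33.2% and 43.3%. The BEAF word CGATA, which every DRE contains, was in 29.4% of promoter calls without the DRE and 37.2% of start windows, and the 6-letter DRE core ATCGAT in 9.41% and 16.5%.

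Top-peak differences were measured for the other words in the same way. Among promoter calls without the DRE, those with the TATA word exceeded those without it by 11.0 points ± 3.62, those with the M1BP word by 4.07 ± 2.88 and those with the E-box by 2.01 ± 1.39 (exact sign-flip permutation p = 0.25 each). For the CRE the difference was 7.00 points ± 14.0 (exact p = 0.75), with 22.7, −3.95 and 2.21 points in replicates 1, 2 and 3. The initiator and GAGA words gave −0.277 ± 0.495 and −2.35 ± 3.14 (exact p = 0.5 each).

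Few calls held several copies, and at promoters their median signal was close to that of calls with 1 copy. Of the 432 calls, 396 had 1 copy, 35 had 2 and 1, at eIF2gamma, had 3. At promoters, 113 of 349 calls with 1 copy (32.4%, 27.7 to 37.5%) and 9 of 34 with at least 2 (26.5%, 14.6 to 43.1%) were IDR peaks. The median signal was 56.7 with 1 copy and 55.5 with at least 2. None of the 34 was among the upper 1000 pooled calls, against 29 of the 349 with 1 copy (8.31%). The p53 call had the highest signal of the 34. Neighbouring copies started 6 to 185 bp apart with a median of 27.0 bp, and in 4 of 37 pairs they overlapped.

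The 49 DRE calls farther than 500 bp from any TSS had a median signal of 36.7 and a median rank of 11109. The other calls away from promoters had medians of 31.9 and 15438, and all pooled calls 33.3 and 13878. Of the 49, 5 (10.2%, 4.44 to 21.8%) were IDR peaks, against 6.60% of 20220 other calls away from promoters. In all 3 lists 12.2% (5.73 to 24.2%) were found, against 18.4%. The strongest lay in an intron, 662 bp downstream of a start of Stt3A, an oligosaccharyltransferase gene, with a signal of 142 and ranks 662, 3129 and 987. An intronic call nearest to CG1677 had 108, and an intronic call nearest to bif, an actin-binding protein gene, had 94.9. Intergenic calls near Sumo and near Haspin, a histone kinase gene, had 94.9 and 87.5. The call near Sumo was absent from replicate 3 and the Haspin call ranked 6950, 4605 and 1017.

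Calls just outside the window were compared with those just inside, as a description. Among promoter calls with the nearest DRE over 75 bp from the summit and just inside the window, 45.1% of 71 were IDR peaks and the median signal was 71.2. Just outside the window, up to 120 bp, 38.9% of 54 were IDR peaks and the median signal was 60.9. At 0 to 25 bp the values were 27.0% of 100 and 56.5, and beyond 200 and up to 400 bp 20.4% of 250 and 39.8.

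By chromosome arm, the DRE calls numbered 55 on 2L, 95 on 2R, 78 on 3L, 121 on 3R, 1 on 4 and 82 on X. They made up 2.07% of the calls of X, 1.80% of those of 2R, 1.69% of 3R, 1.31% of 3L, 1.28% of 4 and 1.03% of 2L. The X also had more copies in its sequence, 39.2 per Mb, against 24.8 to 31.0 on 2L, 2R, 3L and 3R, and chromosome 4 had 98.7 per Mb with 1 DRE call.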

How the data were processed

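The 5 deposited dm6 peak lists were used here: 1 relaxed list per replicate, 1 of the 3 replicates pooled, and the IDR list. Per the labels, the relaxed lists include background calls and were made against a control. Which aligner and which caller were used, and at what IDR threshold, is not given in the sources used here. A signal column holds the authors' deposited value per call, with no stated unit, used only to rank calls within a list. The deposited summit offset, an untransformed position with no score, gave the summits.

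Sequence came from the RefSeq release 6 genome and TSSs from Ensembl release 115 (17896 genes, 23722 TSSs). Windows, overlaps and Wilson intervals (95%) were computed with Python 3.11.15, numpy 2.4.6, pandas 2.3.3 and scipy 1.17.1, and figures with matplotlib 3.10.9. The motif search, overlap and distance steps were tested on simulated data. Replicate differences were tested with an exact two-sided sign-flip permutation over 3 replicates. P-values measure the spread between these samples only. Named genes are those nearest to the 15 DRE calls of highest signal and to the 5 highest away from promoters, all genes of the reported targets and partners, up to 3 leading genes of each other list and the call with most copies; other genes were named after their values were seen. The members, gene lists and tests were chosen with earlier results of these data known. The listed names phl, RpA-70 and h were read as Raf, RPA1 and hry. A gene that this rule selects is not reported here.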

Additional observations from a re-analysis of the deposited data

How the results depend on the processing

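The number of DRE calls was 230 with 50 bp to either side of the summit, 713 with 200 bp and 2104 with the 6-bp core ATCGAT. The share at promoters was 85.0% with a 250 bp promoter. The share in all 3 replicate lists was 53.5% when any overlap counted and 35.4% when summits had to lie within 100 bp. The share of DRE calls in the upper set was 6.71% for the upper 1000 pooled calls, and 14.6 to 16.4% when an IDR peak also had to be a top peak of both other replicates, leaving out each replicate in turn; these sets are smaller by construction. Restricted to divergent promoters, a split added after the values had been seen, the top-peak difference turned to −5.30 points for calls and −0.0459 points for genes. The median log2 signal difference at promoters was 0.36 with a 250 bp promoter, 0.60 with a 1000 bp promoter, 0.07 at divergent promoters and −0.22 among IDR peaks. For the 3 turned and 13 moved values the cause was not tested. The other 20 of the 36 alternatives kept their direction and their side of the threshold of 0.05, or stayed within the error; the top-peak differences could not pass that threshold with 3 replicates. Leaving out 1 replicate gave 6.90 to 10.2 points for calls and 7.96 to 9.91 points for genes. The differences were taken within each replicate and so are paired by construction; with 1 group there is no replicate block between groups to fit. Depth is unknown, and signal and IDR membership are 1 ranking.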
